A study of Mus musculus with 10 samples.

Results

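Small nucleolar RNA (snoRNA) host genes were examined in mouse dorsal telencephalon, the tissue from which the cerebral cortex forms, taken at embryonic day 12. The group was given as 7 symbols, Gas5, Snhg1, Snhg3, Snhg5, Snhg6, Snhg8 and Snhg12, of the 38803 symbols in each library's list. Rows were found for 6 of them, and Snhg8, searched for under its older names too, is not analysed here. Controls had the genotype Rnu11WT/Flx::Emx1-cre+/-, in which 1 copy of Rnu11 is floxed and the other wild type. Mutants had Rnu11Flx/Flx::Emx1-Cre+/-, in which both copies are floxed. There were 5 libraries of each, all on the mixed background C57/Bl6 - 129 SvJ. Rnu11 encodes U11, a small nuclear RNA that the minor spliceosome needs to recognise its rare class of introns. Emx1-Cre acts in progenitors of the dorsal telencephalon and was present in both groups, so the single floxed copy of a control could also recombine. Separate embryos per library are not stated, so the p-values measure the spread between these libraries, which may be technical.

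snoRNA host genes carry snoRNAs in their introns. After splicing, the introns are trimmed to stable snoRNAs, which guide chemical modification of ribosomal RNA or, in a few cases, its cleavage. The joined exons of the non-coding hosts hold short reading frames that ribosomes translate, and these spliced RNAs are then destroyed by nonsense-mediated decay. Many hosts start with a tract of pyrimidines, the 5′ terminal oligopyrimidine element, which ties their translation to that of ribosomal proteins. Gas5 was named for its accumulation in growth-arrested cells, where translation is low and the spliced RNA is degraded less.

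The annotation shows what these genes share. In GENCODE M21 (GRCm38), the 7 genes span 853 to 5673 bases, and 27 snoRNA genes lie inside them. Gas5 (chromosome 1, 161034422 to 161038539) holds 9, Snhg1 (chromosome 19, 8723475 to 8726443) holds 8, Snhg12 (chromosome 4, 132308623 to 132311024) holds 4, Snhg3 (chromosome 4, 132348014 to 132353686) and Snhg5 (chromosome 9, 88521050 to 88522929) hold 2 each, and Snhg6 (chromosome 1, 9941959 to 9944118) and Snhg8 (chromosome 3, 123507552 to 123508404) hold 1 each. In the annotated transcripts without a retained intron, the first reading frame from the first ATG was short, with a median of 25.5 codons over 34 spliced transcripts. It was 23 codons in each of the 5 such transcripts of Gas5. An exon junction lay at least 50 bases past the stop codon of that frame, the arrangement recognised by nonsense-mediated decay, in 27 of the 34 transcripts (79.4%). The same held for 72.6% of 22930 other spliced transcripts of the types lincRNA and processed transcript, so this arrangement is common among non-coding RNAs in general. In those other transcripts the first reading frame had a median of 18 codons, so a short frame does not mark the host genes either. Snhg3 had the junction arrangement in 2 of its 5 transcripts.

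Start sites were searched for pyrimidine tracts. The lines give RefSeq sequence of GRCm38.p6 from 25 bases before the annotated start to 25 after it, 5′ to 3′, with the longest unbroken run of C and T in capitals, and they are shown because such tracts are known to couple host RNAs to translation. RefSeq promoters were matched for 6 of the 7 genes. The windows are chr1:161035141-161035190, plus strand for the second of the 2 Gas5 starts, chr19:8723462-8723511, plus strand for Snhg1, chr4:132353662-132353711, minus strand for Snhg3, chr9:88522873-88522922, minus strand for Snhg5 and chr4:132308653-132308702, plus strand for Snhg12.
Gas5: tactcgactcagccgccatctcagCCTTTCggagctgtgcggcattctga
Snhg1: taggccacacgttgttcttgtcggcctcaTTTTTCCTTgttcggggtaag
Snhg3: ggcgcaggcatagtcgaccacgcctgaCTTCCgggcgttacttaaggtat
Snhg5: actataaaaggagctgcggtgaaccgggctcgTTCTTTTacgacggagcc
Snhg12: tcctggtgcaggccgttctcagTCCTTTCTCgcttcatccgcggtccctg
The runs measured 6 bases at this start of Gas5, 9 in Snhg1, 5 in Snhg3, 7 in Snhg5 and 9 in Snhg12, beside a median of 5 over all promoters. At the first Gas5 start the longest run was 3 bases, and 96.3% of promoters have one as long. Runs as long stood in 43.9% of 32851 promoters for Gas5, 13.3% for Snhg1 and Snhg12, 64.7% for Snhg3 and 29.3% for Snhg5, so a run of this length alone does not mark these genes. At this Gas5 start the run begins at the base before the annotated start, and in Snhg12 it begins 3 bases before. It begins at base 3 of the transcript in Snhg3, base 5 in Snhg1 and base 8 in Snhg5. Snhg8, whose window is not shown, has a run of 7 bases that begins at the base before its start. The letters CACGTG, the same on both strands, were found in 0 of the 7 promoters of these genes and in 7.2% of all promoters.

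Levels are in FPKM, which counts sequenced fragments per length of transcript and per size of library. The number of fragments is not stated, and a rough estimate from the smallest steps in the values ran from 9700000 to 20800000 per library, where 1 fragment per kilobase is worth 0.0481 to 0.103 FPKM. For Rnu11 the mutants, with a mean of 892.3 ± 457.6 FPKM, lay below all controls, with 2283 ± 352.5 FPKM (SD, n = 5 each). The exact permutation test, two-sided here and throughout, gave p = 0.00794, which is the lowest it can give for 5 against 5. In the fit over all genes Rnu11 did not pass (log2 difference -1.50; limma, adjusted p = 0.118). Apart from genotype the libraries formed a first and a second set, told by Rnu12, the U12 small nuclear RNA, which lay at 5.91 to 33.8 FPKM in the first set (controls 1 to 4 and mutants 1 to 3) and at 487 to 688 FPKM in the second (control 5, mutants 4 and 5). The labels name no batch, and the second set has a single control. Rnu11 in mutants was 0.247 times the control level in the first set (565.4 against 2287 FPKM) and 0.61 times in the second (1383 against 2266 FPKM). With a term for the library set Rnu11 passed (log2 difference -1.655, limma, adjusted p = 0.00853), where 0.222% of tested genes were called lower. It also passed in the first set alone (-2.02, limma, adjusted p = 0.00299), where 0.115% were called lower. With rescaling to a common median ratio alone it did not pass (limma, adjusted p = 0.119). Markers of the dorsal telencephalon were present in every library, with Emx1 at 13.6 to 24.7 FPKM and Pax6 at 21.7 to 35.7 FPKM. Others varied more, such as Neurod6 at 9.24 to 113.4 FPKM. The sum of the 8 markers was 138.1 to 238.3 FPKM in controls and 226.8 to 287.0 in mutants, with a median log2 difference of 0.34. Of these 8, 2 had an unadjusted p under 0.05, both higher, and 0 passed (limma). The sum of 7 radial glia genes was 536.9 to 675.3 FPKM in controls and 665.0 to 704.9 in mutants, with a median of 0.12. Of the markers of other cells, the summed level of 7 microglial genes was 19.9 to 47.1 FPKM in controls and 30.2 to 95.4 in mutants, that of 7 erythroid genes 3292 to 7950 and 3951 to 8467, that of 6 endothelial genes 26.3 to 41.9 and 30.2 to 50.2, that of 7 genes of meninges, mesenchyme and pericytes 59.7 to 144.7 and 73.6 to 177.0, that of 6 choroid plexus and hem genes 198.7 to 389.1 and 143.6 to 374.1, and that of 8 ventral telencephalon genes 6.48 to 59.6 and 9.10 to 25.1. No marker was at 0 in all libraries, and the groups' ranges overlapped for each of these lists. Of the microglial genes 7 of 7 lay above the all-gene median, with a median log2 difference of 0.68, 3 had an unadjusted p under 0.05 and 0 passed, while 2 were called higher with a term for the library set (limma). Among all tested genes 7.69% were higher at an unadjusted p under 0.05, and 0.325% were called higher with the set term (limma). Of 7 neuron genes, with sums of 224.8 to 433.3 FPKM in controls and 317.6 to 422.6 in mutants, 4 had an unadjusted p under 0.05, all higher, 0 passed, and 1, Snap25, was called higher with the set term (limma, adjusted p = 0.0232). The part of these cells in the results that follow was not tested. In whole tissue, fewer cells of a type cannot be told apart from less RNA per cell.

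No snoRNA host gene passed the threshold between mutants and controls. Of the 6 genes 0 were higher and 0 lower at an adjusted p under 0.05 (limma on log2(FPKM + 1), adjusted over 13522 tested genes), where 0.0887% of all tested genes were higher and 0.0666% lower. At an unadjusted p under 0.05 there were 2, Snhg3 and Gas5, both higher, where 7.69% of all tested genes were higher and 1.07% lower. The median log2 difference of the 6 genes was 0.19, beside 0.11 for all tested genes, and 3 of the 6 lay above the latter. The other 4 genes had differences between -0.06 and 0.28.

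**Figure D1:**
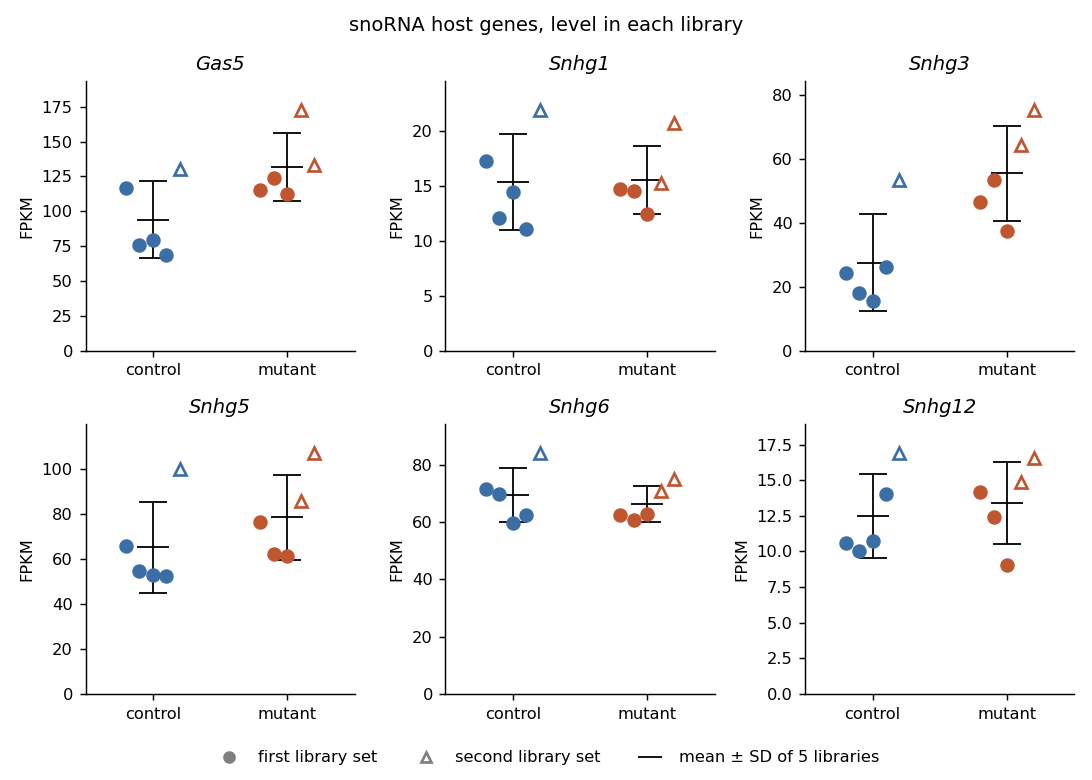
Level of each snoRNA host gene (FPKM, vertical axis from 0) in the 5 control and 5 mutant libraries. Filled circles are libraries of the first set, open triangles those of the second, and black bars the mean ± SD of 5 libraries. Control 5, the blue triangle, is the highest control for each of the 6 genes.

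Snhg3 had the highest ratio between the groups among the 6 genes. It holds Snora73a and Snora73b, which act in the processing of ribosomal RNA. Its level was 24.2, 18.1, 15.6, 26.4 and 53.5 FPKM in controls 1 to 5. In mutants 1 to 5 it was 46.8, 53.6, 37.7, 64.4 and 75.5 FPKM. Controls 1 to 4 lay below each mutant, and control 5 lay above mutants 1 and 3. The mean of controls was 27.6 ± 15.2 FPKM and that of mutants 55.6 ± 14.8 FPKM (SD, n = 5 each), 2.02 times as high. The log2 difference was 1.08 (SE 0.30, 95% interval 0.42 to 1.74; limma, adjusted p = 0.333), and 0.451% of tested genes had a larger one. The exact permutation test over the 10 libraries gave p = 0.0238.

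Control 5 moved the call for Snhg3. Without that library the log2 difference was 1.35 and passed the threshold (limma, adjusted p = 0.0283), where 0.508% of genes were called higher and 0.0897% lower. In the first library set the level was 21.1 ± 5.06 FPKM over 4 controls and 46.0 ± 7.98 FPKM over 3 mutants (SD), 2.18 times as high (log2 difference 1.11; limma, adjusted p = 0.0427). There each mutant lay above each control, which held for 1 of the 6 host genes and for 16.7% of all tested genes, while 1.44% lay below without overlap. In this set 0.568% of genes were called higher and 0.115% lower. In the second set, where Rnu11 was less reduced, Snhg3 was at 53.5 FPKM in the control and 69.9 in the mean of both mutants, 1.31 times as high; whether the sets differ in this was not tested. A fit with a term for the library set gave 0.90 (SE 0.18, 95% interval 0.51 to 1.29; limma, adjusted p = 0.0578), where 0.325% of genes were called higher. The same fit on libraries rescaled to a common median ratio gave 0.80 (limma, adjusted p = 0.0322), where 0.296% were called higher and 0.362% lower.

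Snhg3 shares its strand and part of its exons with Rcc1, which encodes the nucleotide exchange factor of the small GTPase Ran. Reads of the shared part cannot be assigned with certainty, so the level of Rcc1 bears on that of Snhg3. Rcc1 lay at 31.3, 30.9, 25.6, 38.0 and 36.4 FPKM in controls 1 to 5 and at 23.4, 30.9, 23.2, 33.4 and 30.4 FPKM in mutants 1 to 5. Its groups overlapped, and its log2 difference was -0.19 (SE 0.14; limma, adjusted p = 0.70). The ratio of Snhg3 to Rcc1 within a library, which does not depend on the scaling of the libraries, was 0.585 to 1.47 in controls and 1.62 to 2.49 in mutants. Each mutant ratio was above each control ratio, also above that of control 5, with means of 0.827 ± 0.369 and 1.95 ± 0.333 (SD, n = 5 each). The exact permutation p was 0.00794, or 0.0198 adjusted over the 5 ratios examined. All 5 ratios were chosen after the levels had been seen, so their p-values are no independent evidence, also after adjustment. How often ratios of other genes separate the groups was not measured. On the opposite strand Snhg3 overlaps the non-coding Gm17300, which lay at 4.65 to 7.31 FPKM in controls and 5.96 to 8.80 FPKM in mutants.

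Neither snoRNA inside Snhg3 passed the test. Their GRCm38 sequences, from the GENCODE M21 transcripts, are shown because the host's level is compared with theirs; both are box H/ACA snoRNAs on the minus strand, at chr4:132352775-132352979 (Snora73a) and chr4:132352322-132352526 (Snora73b), and the capitals mark the ACA box, which stands 3 bases from the 3′ end.
Snora73a: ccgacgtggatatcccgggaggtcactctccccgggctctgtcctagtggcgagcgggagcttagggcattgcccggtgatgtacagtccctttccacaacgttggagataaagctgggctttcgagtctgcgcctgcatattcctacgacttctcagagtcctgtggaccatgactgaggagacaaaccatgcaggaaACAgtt
Snora73b: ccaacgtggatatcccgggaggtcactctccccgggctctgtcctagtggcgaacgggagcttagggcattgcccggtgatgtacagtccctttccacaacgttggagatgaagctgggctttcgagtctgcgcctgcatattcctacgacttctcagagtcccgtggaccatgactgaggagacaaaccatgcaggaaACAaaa
The 2 sequences are identical at 198 of 205 aligned bases (96.6%), so their values can share reads and are uncertain one by one. Snora73a also overlaps an exon of Snhg3 in part, on the same strand, so the level of Snhg3 can hold reads from it. How much of the Snhg3 level such reads make up was not tested. Snora73a had a mean of 8663 ± 3269 FPKM over the controls and 7484 ± 1598 over the mutants (SD, n = 5 each), a log2 difference of -0.14 (SE 0.28; limma, adjusted p = 0.899). Snora73b lay at 3559 ± 1613 and 4619 ± 1203 FPKM (log2 difference 0.53, SE 0.41; limma, adjusted p = 0.716). The ratio of Snhg3 to Snora73a was 0.00421 ± 0.00394 over the controls and 0.00785 ± 0.00325 over the mutants (SD, n = 5 each), with an exact permutation p of 0.0556, or 0.0695 after adjustment. For Snora73b the ratio was 0.0113 ± 0.0102 and 0.0121 ± 0.00154, with an exact permutation p of 0.349. Over all libraries together, neither ratio separated the groups. For Snora73a, however, each mutant lay above each control of its own library set. Controls 1 to 4 were at 0.00133 to 0.00489, below mutants 1 to 3 at 0.00528 to 0.00571. Control 5, the single control of its set, was at 0.0108, close to mutants 4 and 5 at 0.0113 and 0.0115. How often ratios of other genes do this was not measured. For Snora73b, control 4 at 0.0274 and control 5 at 0.0154 lay above each mutant.

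Snhg3 and Snhg12 are neighbours of Rnu11 itself. On chromosome 4, Rnu11 lies from 132270080 to 132270213, Snhg12 lies 38.4 kb further on and Snhg3 77.8 kb further on. Mutants carry 2 copies of the chromosome with the floxed allele and controls 1, so for these genes an effect of sequence linked to the allele and one of the loss of U11 cannot be told apart. Of 25 tested genes within 500 kb of Rnu11, Snhg12 and Snhg3 among them, 0 passed the threshold and 4 had an unadjusted p under 0.05 (limma), beside 8.76% of all tested genes. Their median log2 difference was 0.15, beside 0.11 for all tested genes, and Snhg3 was second in size to Sesn2, a stress-induced gene and p53 target 221.8 kb away with a log2 difference of 1.24. Snhg12, nearer to Rnu11 than Snhg3, lay at 0.10, and Rcc1, which overlaps Snhg3, at -0.19. The ratio of Snhg3 to Snhg12 was 1.45 to 3.17 in controls and 3.30 to 4.56 in mutants, without overlap, with an exact permutation p of 0.00794, or 0.0198 after adjustment. This ratio too was chosen with the levels known, so its p-value is no independent evidence.

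**Figure D2:**
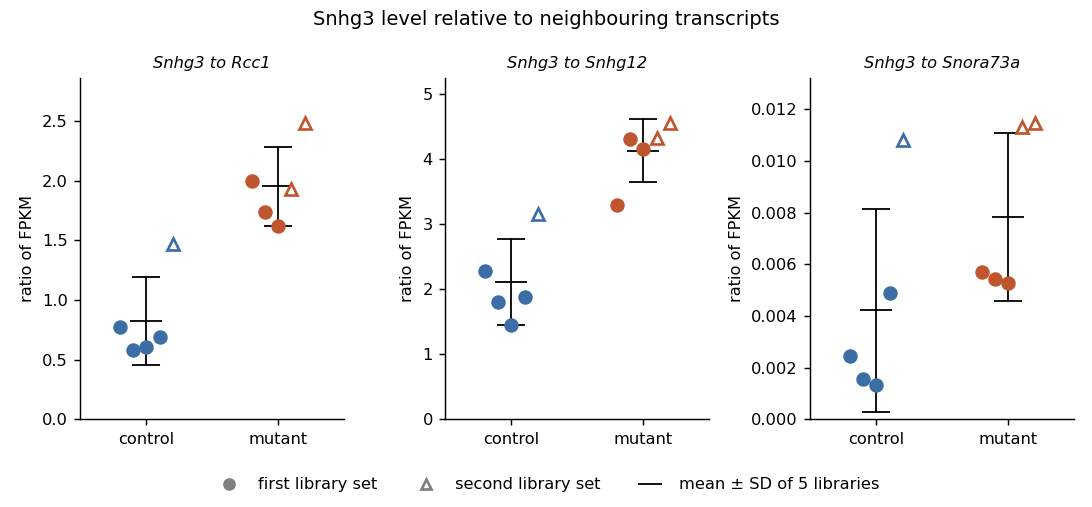
Ratio of the FPKM of Snhg3 to that of Rcc1, Snhg12 and Snora73a (vertical axes from 0) in each of 5 control and 5 mutant libraries, with circles for the first library set, open triangles for the second and bars for the mean ± SD. Mutants lie above all controls for Rcc1 and Snhg12, while for Snora73a control 5, at 0.0108, lies among the mutants.

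**Figure D3:**
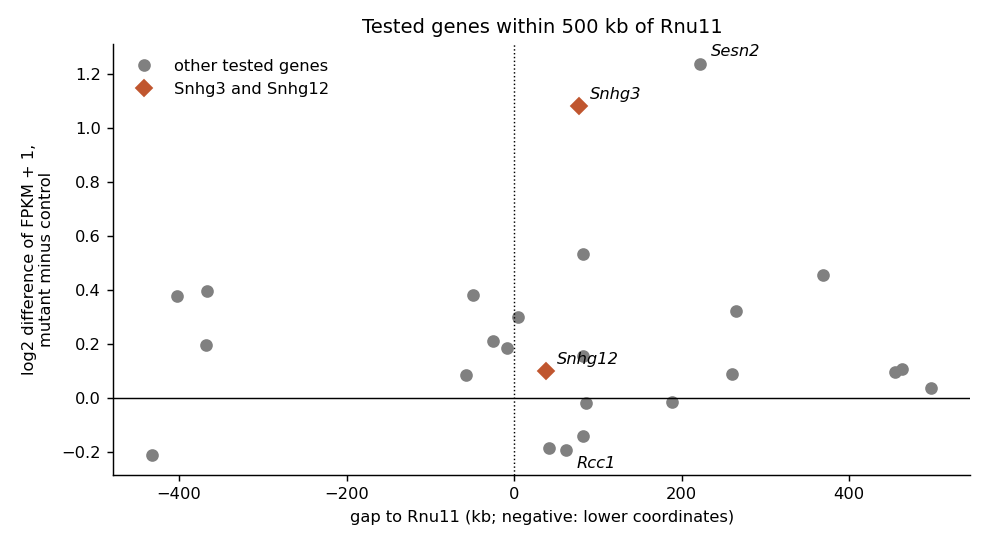
Log2 difference between mutants and controls (vertical axis) for the 25 tested genes within 500 kb of Rnu11, against their gap to Rnu11 in kb (horizontal axis). Snhg3 at 1.08 and Sesn2 at 1.24 stand above the other genes, and Snhg12 lies at 0.10.

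Gas5 was the most abundant of the 6 genes. It lay at 116.5, 75.6, 79.1, 68.5 and 130.3 FPKM in controls 1 to 5 and at 115.4, 123.8, 112.6, 172.7 and 133.4 FPKM in mutants 1 to 5. Controls 2 to 4 lay below each mutant, while controls 1 and 5 lay among the mutants. The mean of controls was 94.0 ± 27.5 FPKM and that of mutants 131.6 ± 24.4 FPKM (SD, n = 5 each), 1.399 times as high. The log2 difference was 0.51 (SE 0.19, 95% interval 0.10 to 0.92; limma, adjusted p = 0.476), and the exact permutation test gave p = 0.0794. The ratio was 1.38 in the first library set and 1.17 in the second, and a term for the set gave a log2 difference of 0.41 (SE 0.14; limma, adjusted p = 0.251). All 9 snoRNAs of Gas5 lie inside an exon of at least 1 of its 25 annotated transcripts, of which 20 have a retained intron, so its FPKM can hold reads from snoRNAs if those transcripts were counted. The same limit applies to Snhg1, Snhg5 and Snhg12, where all 8, 2 and 4 snoRNAs lie inside an exon of an annotated transcript. Against Snhg1, a host with a similar cluster of box C/D snoRNAs, the level of Gas5 was 5.46 to 6.73 times as high in controls and 6.42 to 11.3 times as high in mutants, with mutant 5 inside the range of the controls. The exact permutation p was 0.0159, or 0.0265 after adjustment, for a ratio chosen after the levels had been seen.

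Snhg5, host of a pair of box C/D snoRNAs, lay at 65.7, 54.8, 52.6, 52.5 and 99.8 FPKM in controls 1 to 5 and at 76.4, 62.35, 61.4, 85.9 and 107.0 FPKM in mutants 1 to 5. Control 5 was above 4 of the mutants and control 1 above mutants 2 and 3, while controls 2 to 4 lay below each mutant. The log2 difference was 0.28 (SE 0.20, 95% interval -0.15 to 0.72; limma, adjusted p = 0.695). It was 0.24 in the first library set and -0.06 in the second.

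Snhg6, host of Snord87, lay at 71.7, 69.7, 59.6, 62.6 and 84.1 FPKM in controls and at 62.5, 60.7, 62.85, 71.0 and 75.1 FPKM in mutants. Its groups overlapped over almost the whole range, with a log2 difference of -0.06 (SE 0.11, 95% interval -0.31 to 0.19; limma, adjusted p = 0.892). It varied least of the 6 genes between libraries, with a coefficient of variation of 13.7% in controls, against 55.0% for Snhg3. Its exons overlap those of Mcmdc2 on the opposite strand, which was low at 1.81 to 4.02 FPKM.

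Snhg1, host of Snord22 and 7 other snoRNAs, lay at 17.3, 12.1, 14.5, 11.1 and 21.9 FPKM in controls and at 14.7, 14.5, 12.5, 15.25 and 20.8 FPKM in mutants. The log2 difference was 0.03 (SE 0.18, 95% interval -0.36 to 0.43; limma, adjusted p = 0.965). Snhg12, which holds 3 H/ACA snoRNAs and Snord99, lay at 10.6, 10, 10.8, 14.05 and 16.9 FPKM in controls and at 14.2, 12.4, 9.04, 14.9 and 16.5 FPKM in mutants. The log2 difference was 0.10 (SE 0.18, 95% interval -0.28 to 0.48; limma, adjusted p = 0.879). Both genes were highest in the libraries of control 5 and mutant 5, and in neither did the groups separate. Rescaling the libraries turns the sign of both differences, to -0.08 for Snhg1 and -0.01 for Snhg12 with a common median ratio, which moves the median of all tested genes from 0.11 to 0.00164.

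The order of levels per length, by the median over the 10 libraries, was Gas5 at 115.9 FPKM, Snhg6 at 66.3, Snhg5 at 64.0, Snhg3 at 42.2, Snhg1 at 14.6 and Snhg12 at 13.2. The ranges over libraries overlapped for each neighbouring pair in this order. Within libraries Gas5 exceeded Snhg6 in 10 of 10, Snhg5 exceeded Snhg3 in 10 and Snhg3 exceeded Snhg1 in 10. Snhg6 exceeded Snhg5 in 4 of 5 controls and in 1 of 5 mutants, and Snhg1 exceeded Snhg12 in 9 of 10 libraries. The ranges of Snhg6 and Snhg5 overlapped within each genotype, so neither order exceeds their spread. In controls Snhg3, at 27.6 FPKM, exceeded 80.6% of tested genes, and Gas5 exceeded 94.0%.

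The host genes varied together across libraries. Control 5, mutant 4 and mutant 5 had the 3 highest mean levels of the 6 genes, at 5.76, 5.68 and 5.82 on the log2 scale, against 4.93 to 5.43 in the first set. For Gas5, Snhg5 and Snhg12 each library of the second set lay above each of the first, which held for 3 of the 6 host genes and for 15.5% of all tested genes. After the group means were taken out, Pearson's r of the 15 pairs of genes over the 10 libraries ran from 0.43 for Gas5 with Snhg12 to 0.92 for Snhg5 with Snhg6, with a median of 0.78 and all 15 above 0. All genes of a library share its set, its depth and its scaling, so these values are a description and not a trait shown to be particular to the hosts. Protein-coding genes made up 19.1% of the FPKM sum in control 5, 10.1% to 15.8% in the other controls and 13.6% to 16.1% in mutants. The part of this share in the high host levels of control 5 was not tested. The genes whose level was most like the mean of the 6, over 10 libraries, were Aspm, which encodes a spindle protein mutated in microcephaly (r = 0.986), A430033K04Rik and Srp72, a protein of the signal recognition particle (both 0.982), and Srsf5, a splicing factor, with Zfp943 (both 0.972). With group means taken out they were Aspm again (0.986), Hook1 (0.985), Mir17hg, the host of a microRNA cluster (0.984), Ivns1abp (0.981) and Nck1 (0.98). Each of these 9 genes was higher in every library of the second set than in any of the first, such as Aspm at 18.6 to 21.7 against 12.0 to 17.0 FPKM.

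Other non-coding snoRNA hosts, listed for comparison, included Snhg9 and Snhg4, which had the largest differences among them. Of 15 symbols 12 had a row, 7 of them under an older symbol, and 11 were tested. At the threshold 0 passed, and 6 had an unadjusted p under 0.05, all of them higher in mutants (limma), where 7.69% of all tested genes were. After rescaling to a common median ratio, Snhg4, Snhg9 and Snhg15 stayed under 0.05 (limma, unadjusted p = 0.00485, 0.00713 and 0.0295). Snhg18, Snhg7 and Snhg20 did not (limma, unadjusted p = 0.0509, 0.084 and 0.134). Without rescaling the median log2 difference of the 11 hosts was 0.41, and 9 of 11 lay above the median of all genes. Whether these 11 hosts differ from the 6 genes was not tested. Snhg9, at 34.0, 40.3, 34.0, 64.9 and 40.5 FPKM in controls and 84.0, 89.4, 43.3, 73.0 and 102.7 FPKM in mutants, had a log2 difference of 0.85 (SE 0.23; limma, adjusted p = 0.32). Here 4 of the 5 mutants lay above each control, and mutant 3 lay above each control but control 4. Snhg4, at 4.69, 3.47, 3.63, 4.09 and 8.83 FPKM in controls and 8.04, 10.3, 6.45, 9.06 and 8.60 FPKM in mutants, had control 5 among the mutants, as Snhg3 did, and its other controls below each mutant. Its log2 difference was 0.73 (SE 0.20; limma, adjusted p = 0.331), and 0.89 in the first library set (limma, adjusted p = 0.0444). In that set 0.568% of tested genes were called higher and 0.115% lower. In the second set Snhg4 was at 8.834 FPKM in the control and 8.831 in the mean of both mutants. Snhg15, Snhg20, Snhg18, Epb41l4aos, Snhg7, Dancr, Snhg17, Zfas1 and Snhg16 lay at 0.49, 0.49, 0.43, 0.41, 0.31, 0.26, 0.12, 0.10 and -0.12. Snhg11 was under the filter on low values, at 0.251 to 1.32 FPKM. Control 4, the library with the highest Snhg11 and the highest control level of Snhg9, also had the highest sums of ventral telencephalon markers (59.6 FPKM) and of neuron markers (433.3 FPKM), and the part of those cells was not tested.

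**Figure D4:**
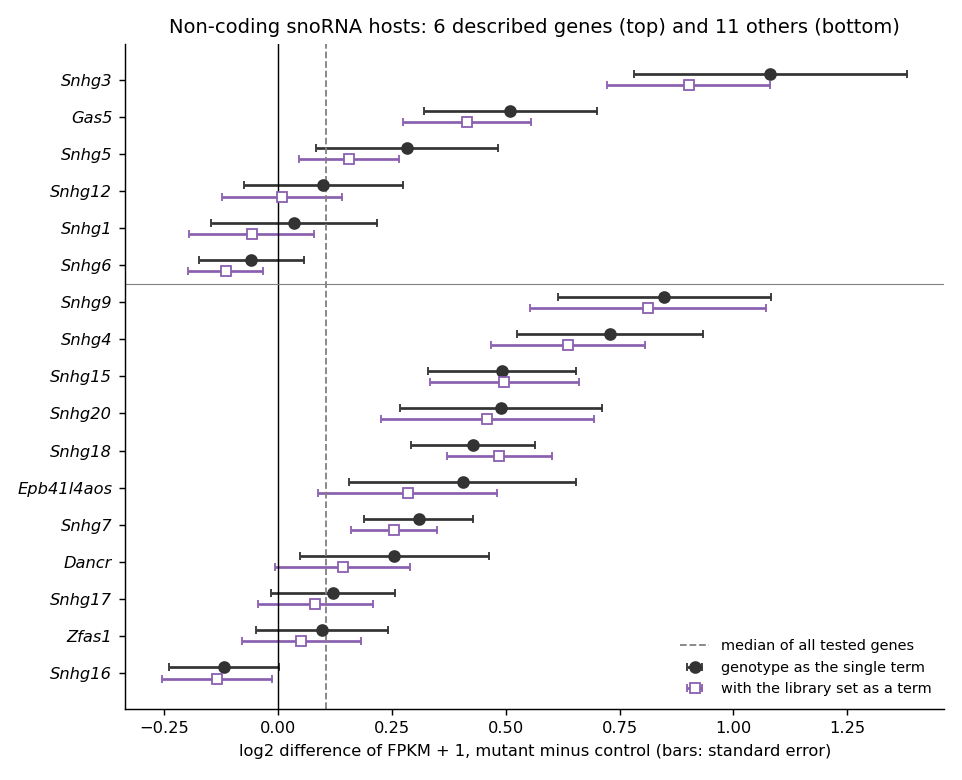
Log2 difference in FPKM + 1 between mutants and controls (horizontal axis) with its standard error for the 6 snoRNA host genes above the line and 11 other non-coding hosts below it. Black points are from the fit with genotype alone, open squares from the fit with the library set as a term, and the dashed line marks the median of all tested genes, 0.11. Snhg3, Snhg9 and Snhg4 lie farthest to the right.

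Genes that encode a protein beside hosting snoRNAs, most of them ribosomal proteins and translation factors, lay close to all other genes. Of 34 tested 0 passed the threshold, 1 had an unadjusted p under 0.05 (limma), and the median log2 difference was 0.07. That gene was Eef2, the elongation factor of ribosomal translocation, with a mean of 267.3 ± 8.37 FPKM over the controls and 322.0 ± 30.65 over the mutants (SD, n = 5 each). Each mutant lay above each control, as for 1.52% of tested genes, against 0 of the 6 host genes. The log2 difference of Eef2 was 0.26 (limma, adjusted p = 0.517). Rpl10, a protein of the large ribosomal subunit, lay at 79.9 ± 37.5 and 107.7 ± 34.1 FPKM. Of 8 further genes with a pyrimidine tract and no listed snoRNA 0 passed and 1, Rps19, had an unadjusted p under 0.05 (limma), with a median of 0.02. Rps19 lay at 36.6 ± 8.64 and 48.0 ± 7.34 FPKM and Rplp1, the list's next gene by p, at 1035 ± 365.2 and 675.2 ± 220.3.

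The proteins that act on these RNAs were measured too. Of 17 snoRNP proteins and assembly factors 0 passed and 0 had an unadjusted p under 0.05 (limma), with a median log2 difference of 0.07. Nop10, a core protein of H/ACA particles, had means of 24.4 ± 3.94 and 28.5 ± 1.30 FPKM in the same order, and Znhit6, an assembly factor of box C/D particles, at 1.90 ± 0.515 and 2.53 ± 0.424. Of 21 factors of nonsense-mediated decay and the degradation that follows it, 0 passed, 1 had an unadjusted p under 0.05 (limma) and the median was 0.19. The single one was Dcp2, the enzyme that removes the cap from messenger RNAs. It lay at 8.78, 7.28, 7.16, 10.2 and 13.25 FPKM in controls and at 5.44, 5.45, 5.47, 6.97 and 6.36 FPKM in mutants. Each mutant was below each control, as for 0.377% of tested genes, with a log2 difference of -0.55 (SE 0.16; limma, adjusted p = 0.333). In the fit with a term for the library set Dcp2 fell by 0.63 on the log2 scale (limma, adjusted p = 0.0391), where 0.222% of tested genes were called lower. Xrn1, the exonuclease that degrades decapped RNA, lay at 4.39 ± 0.496 and 5.23 ± 0.442 FPKM.

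Protein-coding transcripts known as targets of nonsense-mediated decay had 0 calls among 9 tested and 1 unadjusted p under 0.05 (limma), that of the stress transcription factor gene Ddit3. Its means were 4.145 ± 1.21 FPKM for controls and 5.50 ± 0.711 for mutants. Their median log2 difference was 0.20, and 5 of 9 lay above the median of all genes. Map3k14, a kinase of the NF-kappa-B pathway, lay at 1.57 ± 0.365 and 2.03 ± 0.222 FPKM. For scale, targets of p53, a list chosen with results of these libraries known and so no independent evidence, had a median of 0.90 with 4 of 11 past the threshold, Eda2r, Ccng1, Trp53inp1 and Aen (limma).

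The snoRNAs inside the host genes could be followed only in part. Of 27 snoRNA genes 23 had a row, and 12 of these were listed at 0 FPKM in all 10 libraries, each of them among the 16 of up to 100 bases. An exact 0 at that length can be a failed estimate, so it does not show absence. Gm22357, a snoRNA gene of 83 bases in Gas5, was listed at 0 in each library of the first set and at 3794, 997 and 670.9 FPKM in control 5, mutant 4 and mutant 5. Snord47, also in Gas5, was at 813.3 FPKM in control 5 and 0 in the other libraries, and Mir5117, annotated there as a snoRNA, at 44.0 FPKM in control 5 and 0 in the others. Snord87, in Snhg6, was at 90.7 and 94.6 FPKM in controls 2 and 4, at 146.1 and 130.7 FPKM in mutants 4 and 5, and at 0 in the others. In Snhg12, Snora44 reached 9.13 FPKM in control 4, 26.4 in control 5, 29.8 in mutant 4 and 40.8 in mutant 5, Snora16a 4.87 to 19.4 in 4 libraries, and Snora61 31.1 in control 5 and 6.52 in mutant 4. Snord22, of 126 bases in Snhg1, lay at 20.1 to 76.7 FPKM in the first set and 193.4 to 447.6 in the second, with a log2 difference between genotypes of 0.06 (SE 0.96; limma, adjusted p = 0.99). Gm22357, Snora44 and Snord22 were higher in each library of the second set than in any of the first, while Snord87, Snora16a, Snord47, Mir5117 and Snora61 did not separate the sets. The part of these short RNAs in the host levels was not tested.

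Snora24, the snoRNA of Snhg8, was listed although its host was not. Its sequence from the GENCODE M21 transcripts, at chr3:123507937-123508066 on the minus strand of GRCm38, has the ACA box in capitals, again 3 bases from the 3′ end.
Snora24: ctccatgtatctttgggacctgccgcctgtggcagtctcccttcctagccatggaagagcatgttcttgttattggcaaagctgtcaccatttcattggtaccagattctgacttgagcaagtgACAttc
It lay at 297.6, 232.4, 236.5, 153.7 and 233.4 FPKM in controls 1 to 5 and at 115.9, 174.7, 71.3, 151.5 and 255.2 FPKM in mutants 1 to 5. Mutants 1, 3 and 4 lay below each control, and mutant 5 above 4 of the controls. The log2 difference was -0.67 (SE 0.30; limma, adjusted p = 0.564), and the exact permutation test gave p = 0.0952. Of the 4 snoRNAs inside these host genes that were tested 0 passed, Snora24 had an unadjusted p under 0.05 (limma), and the median was -0.04.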

How the data were processed

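Total RNA depleted of ribosomal RNA was sequenced from 10 libraries with a stranded kit, per the labels' protocols. HISAT2 and GRCm38 (mm10) are named in the submitters' processing notes. The authors deposited FPKM values per gene symbol, 1 list per library; the sources used here do not name the quantifying program or annotation, nor say whether strand was used. Log2(FPKM + 1) values were tested with limma 3.58.1 in R 4.3.3 (intensity trend, robust moderation, genotype alone) over the 13522 genes that reached 1 FPKM in 5 or more libraries, with Benjamini-Hochberg adjustment and a threshold of 0.05. Fold changes on this scale are understated for low genes. The fit was tested on simulated data. Exact permutation tests used all splits of 5 against 5. Genes were annotated with GENCODE M21, and 35718 of 38803 symbols matched by name and 1783 by an older name. The second library set is those with over 100 FPKM of Rnu12. The genes, lists and alternatives were chosen with earlier results of these data known, as was the rule for named genes. It named each host gene, the other hosts, up to 4 passing genes (or the 2 with the smallest p) per list, the snoRNAs with a mean of at least 1 FPKM, and the 5 genes most like the hosts' mean. Mir5117 and the snoRNA rows are named by the annotation. Python 3.11.15 and pandas 2.3.3 served for tables.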

Additional observations from a re-analysis of the deposited data

Results flagged for a closer look

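In 44 groups of 5 libraries without a value of 0, the highest or lowest library was checked for a gap to the rest above 0.71 of the group's range, and 6 groups had one, where chance flags about 1 in 20. That rate holds for independent groups of normally distributed values. The groups here share the same 10 libraries, so the count of flagged groups cannot be measured against it. Snhg3 in control 5, at 53.5 FPKM, stood above the other controls at 15.6 to 26.4 FPKM. Snhg5 in control 5, at 99.8 FPKM, stood above 52.5 to 65.7 FPKM. Snhg4 in control 5, at 8.83 FPKM, stood above 3.47 to 4.69 FPKM. Snord22 in control 5, at 447.6 FPKM, stood above 22.8 to 70.6 FPKM. Snhg9 in control 4, at 64.9 FPKM, stood above 34.0 to 40.5 FPKM. Snhg11 in control 4, at 1.32 FPKM, stood above 0.251 to 0.446 FPKM. Control 5 is the single control of the second library set.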

How the results depend on the processing

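Of the 6 host genes, Snhg3 and Gas5 kept a positive log2 difference under all 22 alternatives tried (Snhg3 0.80 to 1.35, adjusted p 0.0283 to 0.649; Gas5 0.31 to 0.64, adjusted p 0.103 to 0.796), and so did Snhg5 (0.05 to 0.45). The count of genes called, 0, became 1, Snhg3, with the replicate block (log2 difference 1.08, adjusted p = 0.0319), in the first library set alone (1.11, adjusted p = 0.0427), without control 5 (1.35, adjusted p = 0.0283) and with the library set as a term together with rescaling to a common median ratio (0.80, adjusted p = 0.0322), an alternative added after the data were seen. Leaving out each library in turn gave 0 to 1 called, a median over the genes of 0.09 to 0.33, and for Snhg3 0.92 to 1.35, Snhg1 -0.069 to 0.166, Snhg6 -0.111 to 0.011 and Snhg12 0.022 to 0.223. Snhg1 changed sign with rescaling to a common median ratio (-0.081), to the protein-coding sum (-0.016), by quantiles (-0.064), with the library set as a term (-0.058) and with set term and median ratio (-0.161), and without control 2, control 4 or mutant 5. Snhg12 did so with the median ratio (-0.014), quantiles (-0.023) and set term with median ratio (-0.092), and Snhg6 without control 5 (0.011). With set term and median ratio the median over the genes was -0.023. None of these 3 genes was called under any alternative. The count over all tested genes, 21 (12 higher, 9 lower), was 2 without a filter, 30 with the median ratio (11 higher, 19 lower), 25 with the protein-coding sum (9 higher, 16 lower), 35 with quantiles (13 higher, 22 lower), 74 with the set term, 89 in the first set and 89 with set term and median ratio (40 higher, 49 lower), 11 without trend and robust moderation, 14 with the replicate block and 2 to 80 with each library left out (80 without control 5). Same-numbered libraries correlated at -0.107 to 0.521 in their deviations from group means, and not every library did so best with its own number, so the numbers were not treated as pairs. The cause of these changes was not tested. Depth is only estimated, and low genes such as Snhg11 are the least certain.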
